A study of Mus musculus with 2 samples.

Results

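Genes of the cellular answer to low oxygen and of sugar breakdown were followed in the skin of newborn mice without the phospholipase gene Pla2g4e. The 10 genes were Hif1a, Epas1, Vegfa, Slc2a1, Pgk1, Ldha, Car9, Bnip3, Adm and Egln3. They were taken by name from the gene column of the arrays, which gave 19 of 39429 probes, and they stand for 10 of 24320 named genes. The KO pool held skin RNA of Pla2g4e-/- mice and the WT pool that of Pla2g4e+/+ mice, both of the strain C57BL/6N at postnatal day 0, untreated as far as the labels say. Each pool was made from equal amounts of RNA from 5 animals and was read on 1 single-colour Agilent array. With 1 array per genotype there was no replicate, so no test was run, and every difference compares these 2 pools alone.

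Cells sense oxygen through hypoxia-inducible factors, whose alpha subunits are marked for destruction by oxygen-dependent prolyl hydroxylases while oxygen is plentiful. When oxygen falls, the alpha subunits persist, pair with Arnt and bind a short DNA motif near genes for glucose uptake, glycolysis, blood vessel growth, acid handling and turnover of mitochondria. Much of this control acts on the protein of the alpha subunit and leaves its RNA little altered. Epidermis is poorly oxygenated and is known for active glycolysis.

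A level is the processed signal of a probe, in scanner units, before scaling. A difference is the log2 signal of the KO pool minus that of the WT pool, after each array was scaled to the 75th percentile of its probes, which stood at 2096 on the KO array and 2233 on the WT array. Because of that scaling, a probe with equal unscaled readings has a difference slightly above 0. The median spot signal was 241 in the KO pool and 249 in the WT pool. The scanner's own error for a difference had a median of 0.20 log2. Spots of the 331 probes printed about 10 times gave that difference a typical SD of 0.039 log2 (the median over probes). Both errors describe spots and leave out the animals. All 19 probes were well above background in both pools.

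The pools matched the tissue label and differed in more than Pla2g4e. Keratinocyte and fibroblast markers such as Krt5, Krt14 and Col1a1 were bright in both, with Krt5 at 224586 in the KO pool and 247197 in the WT pool. The Pla2g4e probe A_52_P203948 read 320 in the KO pool and 662 in the WT pool, or 51.4% of the WT level after scaling. The labels do not say which part of the gene was removed, so this probe may lie outside it. A second Pla2g4e probe was near background, at 11.7 in the KO pool and 10.6 in the WT pool. The pools also differed in sex make-up. The Y-linked Ddx3y read 2.36 in the KO pool and 2893 in the WT pool. Xist, which coats the silenced X, read 2889 in the KO pool and 796 in the WT pool. Xist was well above background in both pools, so the WT pool held it beside Y-linked RNA, as a pool of both sexes would. Genotype, sex and array position therefore cannot be told apart in any value below.

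The promoters of the genes are shown because hypoxia-inducible factors bind a short motif near their targets. The genes were chosen by name and not by that motif. RefSeq windows on GRCm38.p6, from 250 bases before to 50 bases after a gene's start, were found for 9 of the 10 genes, Epas1 being the exception. The letters searched were ACGTG and GCGTG on both strands, so that a match on the other strand reads CACGT or CACGC, and a CACGTG counts on both strands. Vegfa is not among the stretches printed, and its windows are described after them. Matches are in capitals in the following stretches of 50 bases, each lying wholly upstream of the start and read along the gene's strand.
Bnip3, chr7:138909590-138909639, minus strand: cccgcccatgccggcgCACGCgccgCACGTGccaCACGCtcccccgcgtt
Adm, chr7:110627560-110627609, plus strand: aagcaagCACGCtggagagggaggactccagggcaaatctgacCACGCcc
Slc2a1, chr4:119108671-119108720, plus strand: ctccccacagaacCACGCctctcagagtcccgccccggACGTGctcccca
Egln3, chr12:54204075-54204124, minus strand: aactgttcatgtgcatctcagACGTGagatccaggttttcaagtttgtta
Pgk1, chrX:106186934-106186983, plus strand: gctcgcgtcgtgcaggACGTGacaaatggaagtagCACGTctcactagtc
Ldha, chr7:46845736-46845785, plus strand: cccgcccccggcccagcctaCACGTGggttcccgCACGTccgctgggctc
Hif1a, chr12:73907707-73907756, plus strand: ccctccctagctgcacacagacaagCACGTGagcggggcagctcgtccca
Car9, chr4:43506976-43507025, plus strand: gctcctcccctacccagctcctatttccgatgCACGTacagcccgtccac

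At least 1 match stood in a window of all 9 genes, against 46.7% of the 27025 genes in the table, and ACGTG itself in 8 of 9, against 21.8%. Adm was the gene with GCGTG alone. The windows of these genes were richer in G and C, with a median of 62.0% against 52.7% over all windows. Among the 12336 windows within the same range of G and C, 62.0% held a match to either motif and 25.6% held ACGTG. Counted by window in the same way, 10 of the 11 windows of these genes held either motif and 8 held ACGTG. Vegfa had 2 windows, and the one at chr17:46032328-46032627 had no match. Its matches, 1 of each motif, lay in the window at chr17:46025114-46025413. Vegfa is on the minus strand, so that window lies downstream of the other along the gene. Vegfa is counted above through that downstream window alone. The genes were picked as hypoxia factors and targets, so a surplus of the motif among them is no independent finding, and a match is not a binding site. The genes with matches included the highest, Bnip3, and also Ldha, whose 2 windows held 9 matches and whose RNA was level between the pools.

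Bnip3 and Adm were the 2 of 10 genes at least 1.5-fold higher in the KO pool, and 0 were at least 1.5-fold lower. Over all 19376 measured genes, 6.78% were that much higher and 4.47% that much lower. Of the 10, 0 reached 2-fold in either direction, beside 2.26% of measured genes that were that much higher and 1.43% that much lower, together 3.7%. The median of the 10 was 0.23 log2, beside a median of 0.01 for all measured genes, and 8 of the 10 lay above 0. With 10 genes and no replicate, nothing particular to the group is read from these counts.

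**Figure D1:**
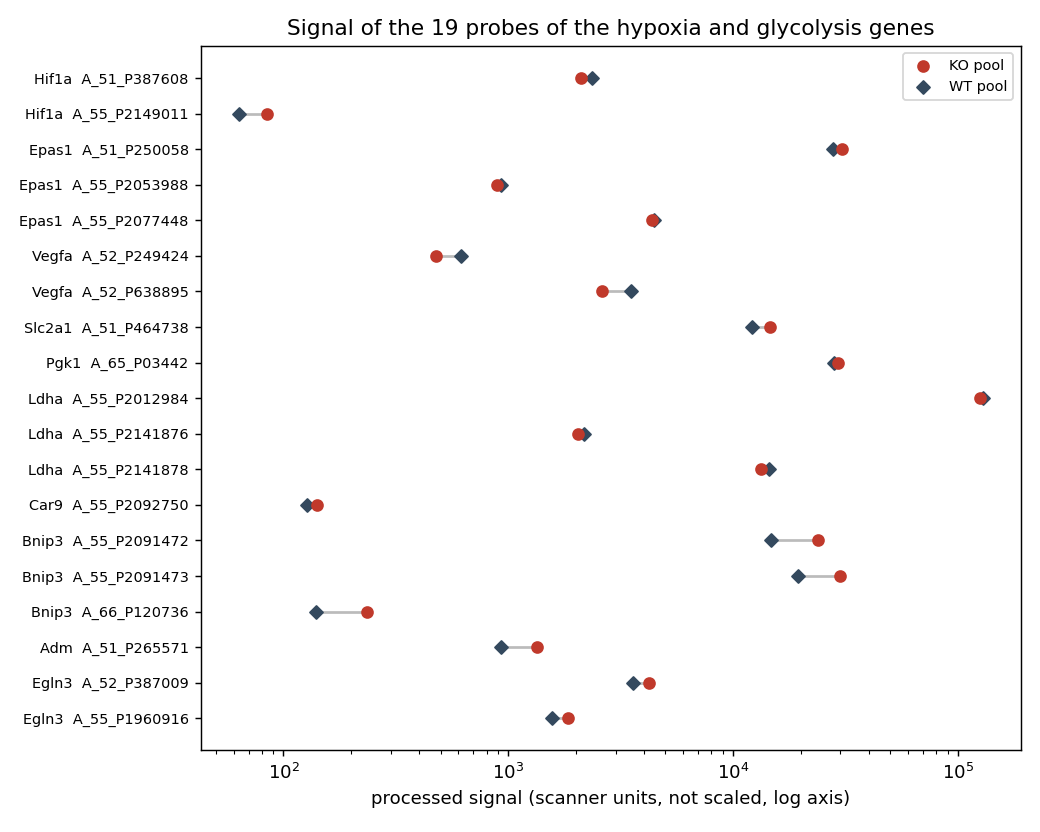
Processed signal of each of the 19 probes on a log axis, in scanner units before scaling, with the KO pool as circles and the WT pool as diamonds (1 array each). The 3 Bnip3 probes and the Adm probe show the widest gaps toward the KO pool, and both Vegfa probes lie lower in the KO pool.

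The alpha subunits among the 10 genes, Hif1a and Epas1, were within 1.5-fold on each of their probes. Hif1a, the subunit found in nearly all cells, has a probe for NM_010431 at mm9 chromosome 12, 75047269 to 75047329, which read 2100 in the KO pool and 2361 in the WT pool. Its difference of -0.08 log2 was smaller than the scanner error of 0.20. A dimmer Hif1a probe for the cDNA AK017853, at 75033965 to 75034024, read 84.5 in the KO pool and 63.1 in the WT pool and differed by 0.51 log2. The probes thus disagree in sign, and the direction of Hif1a depends on which is used: their mean was 0.22. The exon or intron that each probe covers was not looked up here, for want of an mm9 annotation.

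Epas1 encodes HIF-2 alpha, a subunit known for its level in endothelium. Its brightest probe read 30538 in the KO pool and 27848 in the WT pool, a difference of 0.22 log2 with an error of 0.20. The other two Epas1 probes differed by 0.05 and 0.02 log2, so that averaging the 3 gives 0.10. Epas1 RNA was therefore within the scanner error of level on its dimmer probes and barely beyond it on the brightest.

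Egln3 encodes a prolyl hydroxylase that marks the alpha subunits and is itself a target of them. Its brighter probe read 4240 in the KO pool and 3571 in the WT pool, a difference of 0.34 log2, and the second probe, at 1841 in the KO pool and 1559 in the WT pool, gave 0.33. Both probes were higher in the KO pool, by 1.66 times the scanner error on the brighter one.

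Vegfa was the one gene of the 10 lower by more than the scanner error. It encodes the growth factor that draws blood vessels into tissue, and keratinocytes are a main source of it in skin. The brighter probe, for NM_001025250 at mm9 chromosome 17, 46154387 to 46154446, read 2616 in the KO pool and 3527 in the WT pool, which is -0.34 log2 or 0.790 times the WT level. The second probe, for NM_001025257 at 46162376 to 46162435, read 479 in the KO pool and 613 in the WT pool, which is -0.26 log2. It lies at another place in the gene and gave the same sign.

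Adm, which also acts on vessels, stood on the other side of 0 from Vegfa. Adm encodes adrenomedullin, a peptide that widens vessels and acts through the receptor Calcrl with Ramp2 or Ramp3. Its single probe, for NM_009627 at mm9 chromosome 7, 117773088 to 117773147, read 1345 in the KO pool and 925 in the WT pool, a difference of 0.63 log2 or 1.55-fold. That is 3.09 times the scanner error, and 5.93% of measured genes were at least as high. With 1 probe, Adm has no second reading on the array.

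Bnip3 had the largest difference of the 10, and its 3 probes gave like values. It encodes a protein of the outer mitochondrial membrane that promotes the removal of mitochondria by autophagy. The brightest probe, for NM_009760 at mm9 chromosome 7, 146082760 to 146082819, read 29840 in the KO pool and 19390 in the WT pool. The second, at 146082640 to 146082699, read 23787 in the KO pool and 14750 in the WT pool, and the third, at 146082536 to 146082595, read 234 in the KO pool and 140 in the WT pool. All 3 were higher in the KO pool, by 0.71, 0.78 and 0.83 log2, or 1.64-fold to 1.78-fold. The probes lie close together and share the same RNA on each array, so they repeat the measurement and not the sample. The brightest difference was 3.50 times the scanner error, and 4.59% of measured genes were at least as high.

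Car9, the membrane carbonic anhydrase that moves acid out of hypoxic cells and is among the most specific of the targets, stayed dim. It read 141 in the KO pool and 128 in the WT pool, a difference of 0.24 log2 with an error of 0.21. Its mean signal lay at percentile 24.2 of the measured genes.

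Glucose entry and glycolysis showed small differences. Slc2a1, a glucose transporter of epidermis and many other tissues, read 14559 in the KO pool and 12084 in the WT pool, which is 0.36 log2 or 1.28-fold and 1.77 times the scanner error. Pgk1, which makes the first ATP of glycolysis, read 29187 in the KO pool and 27976 in the WT pool, a difference of 0.15 log2 within the error. Pgk1 lies on the X chromosome, whose 649 measured genes had a median of 0.07, and the pools differ in sex make-up.

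Ldha, which turns pyruvate into lactate, was level on all its probes. The brightest read 124738 in the KO pool and 129524 in the WT pool, a difference of 0.04 log2. The others read 13268 against 14494 and 2048 against 2179 in the KO and WT pools, with differences of -0.04 and 0.00. These 2 are shown since they lie at separate places along the gene and repeat its reading to within 0.04 log2 of 0.
Ldha, A_55_P2141876, mm9 chr7:54103010-54103069: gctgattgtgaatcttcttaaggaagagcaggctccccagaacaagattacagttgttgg
Ldha, A_55_P2141878, mm9 chr7:54107294-54107353: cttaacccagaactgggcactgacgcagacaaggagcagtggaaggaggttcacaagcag

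**Figure D2:**
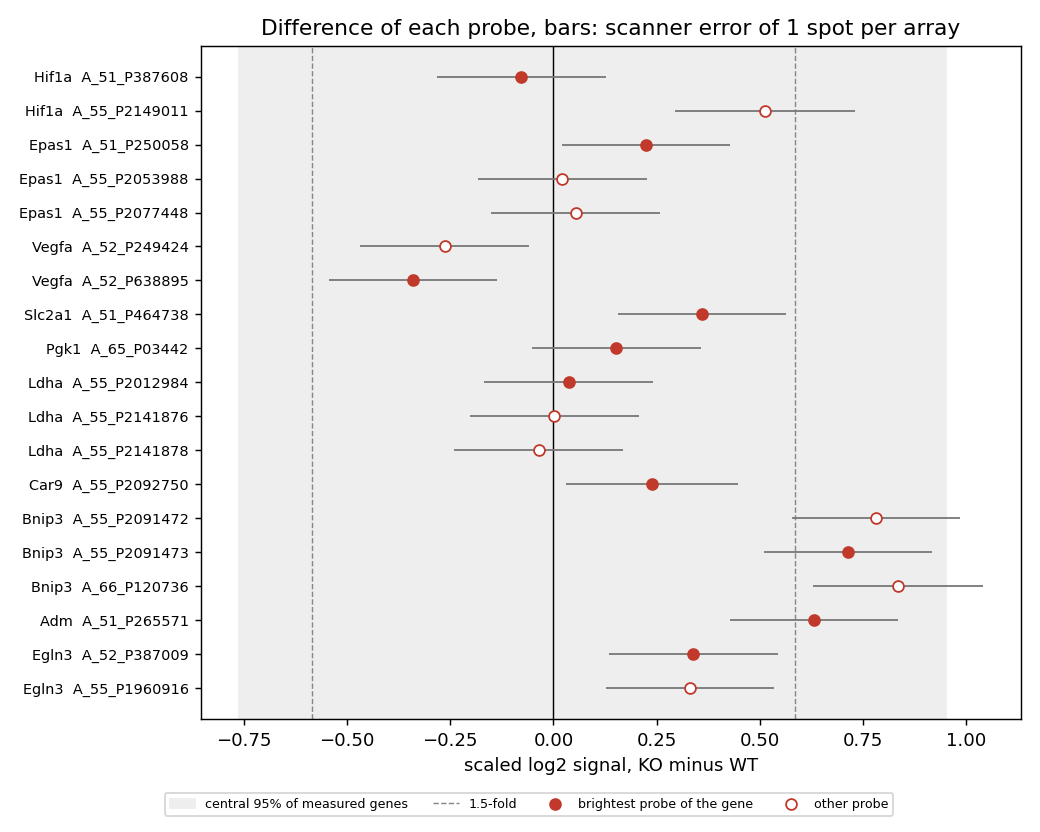
Difference of each of the 19 probes, in scaled log2 signal, KO minus WT, with bars for the scanner's error of that difference. The grey band holds the central 95% of the 19376 measured genes, and the Bnip3 and Adm points alone lie beyond the dashed 1.5-fold line.

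Of the 6 genes with more than 1 probe, 4 had all probes on one side of 0, namely Epas1, Vegfa, Bnip3 and Egln3. Hif1a and Ldha had probes on both sides. The differences ran from -0.34 for Vegfa to 0.71 for Bnip3, and all 10 lay within the central 95% of measured genes, which ran from -0.76 to 0.95. In the brighter 50% of genes by signal that range was narrower, from -0.58 to 0.73, and 4.09% of those genes were at least as far from 0 as Bnip3 and 5.54% as Adm.

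Other parts of the oxygen-sensing machinery held 2 large differences, both from outside the 10 genes. Of 17 genes for the subunits and their regulators, 2 were at least 1.5-fold higher, 0 were lower, and the median was 0.20 log2. That is 11.8% higher, beside 6.78% of all measured genes, and 0% lower, beside 4.47%. Hif3a, an alpha subunit with variants that restrain the others, read 8948 in the KO pool and 1750 in the WT pool, or 5.45-fold higher, and its 3 probes ran from 0.71 to 2.45 log2. Cited2, which competes with the alpha subunits for the coactivators Ep300 and Crebbp, read 6216 in the KO pool and 2791 in the WT pool, or 2.37-fold higher, and its 2 probes gave 1.25 and 1.51. Both are known as brakes on the pathway and as genes that respond to other signals as well. The remaining members were within 1.5-fold, with the ubiquitin ligase genes Siah2 at -0.21 and Cul2 at -0.19 and the ring protein Rbx1 at -0.13.

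Glycolytic genes as a whole differed little, with 22 of 29 above 0. Their summed scaled level was 528 in the KO pool and 462 in the WT pool. For the 29 genes of glucose uptake, glycolysis and lactate export, the median was 0.13 log2, beside 0.01 over all measured genes. At least 1.5-fold higher was 1, or 3.45% beside 6.78% of all measured genes, and 0 were lower, beside 4.47%. That 1 was Slc16a3, the lactate exporter of glycolytic cells, at 7826 in the KO pool and 4816 in the WT pool, which is 0.79 log2 and was nearly the same on its 2 probes. Next came Slc2a4, the insulin-responsive glucose transporter of muscle and fat, at 0.54, and the hexokinase Hk3 at 0.50. Lowest were Pfkfb1 and the mutase Pgam1, both at -0.21, and Pfkfb4 at -0.17. Among enzymes for the same step, all picked after their values were seen, the muscle mutase Pgam2 stood at 0.47 and Pgam1 at -0.21. The muscle enolase Eno3 stood at 0.43, Eno1 at 0.18 and Eno2 at -0.15. The muscle phosphofructokinase Pfkm stood at 0.18, Pfkl at -0.05 and Pfkp at -0.08. The muscle aldolase Aldoa stood at 0.28 and Aldoc at -0.01. Hexokinases and lactate dehydrogenases did not show this order, with Hk2, the form of muscle and fat, at 0.05 and Hk1 at 0.06, and with Ldha, the muscle-type subunit, at 0.04 and Ldhb at 0.19.

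Skeletal muscle markers were higher in the same pool. Of 14, 13 lay above 0, with a median of 0.37, beside 0.01 over all measured genes. At least 1.5-fold higher were 2, or 14.3% beside 6.78% of all measured genes, and 0 were lower, beside 4.47%. The 14 ran from the myoglobin gene Mb at -0.27 to the embryonic myosin Myh3 at 0.99. Their summed scaled level was 459.0 in the KO pool and 358 in the WT pool. The part of muscle in the glycolytic values and in Bnip3, which muscle also expresses, was not tested.

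The exit of pyruvate to mitochondria is held back by the pyruvate dehydrogenase kinases. Of the 4 only Pdk4 was past 1.5-fold, beside 11.3% of all measured genes past that size in either direction. Pdk4, known to be raised by fasting, read 8823 in the KO pool and 3408 in the WT pool, or 2.76-fold higher. Pdk1, the hypoxia target among them, read 1396 in the KO pool and 1472 in the WT pool, a difference of 0.01. Pdk2 stood at 0.29 and Pdk3 at -0.08.

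Vascular signals and receptors had the highest median of these lists. Of 17, 14 lay above 0, with a median of 0.43 log2, beside 0.01 over all measured genes. At least 1.5-fold higher were 3, or 17.6% beside 6.78% of all measured genes, and 0 were lower, beside 4.47%. The count depended on the scaling: with arrays scaled to the median of all probes it was 1, that gene being Ramp2, with a median of 0.38, and with normexp background correction it was 2, with a median of 0.29. Beside Adm these were Ramp2, the partner of the adrenomedullin receptor, at 0.64, and Angpt2, which loosens vessels for growth, at 0.59. The adrenomedullin receptor gene Calcrl was dim, at 44.7 in the KO pool and 33.6 in the WT pool, with a difference of 0.50, a value picked after it was seen. The 3 lowest were Vegfa, then Vegfb at -0.25 and the co-receptor Nrp2 at -0.16.

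Endothelial markers were higher beside these genes. Of 12, 7 were at least 1.5-fold higher and 1 lower, which is 58.3% and 8.33%, beside 6.78% and 4.47% of all measured genes. The 12 ran from Sox18 at -0.59 to Emcn at 0.84, with a median of 0.63, and Ramp2 belongs to both lists. Their summed scaled level was 35.6 in the KO pool and 25.8 in the WT pool. In whole skin, more vessel cells and more RNA per vessel cell cannot be told apart, and the part of endothelium in Adm, Epas1 and the vascular list was not tested.

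Other established targets went in both directions. Of 29, 4 were at least 1.5-fold higher and 2 lower, with a median of 0.15 log2. Ddit4, an inhibitor of mTOR that also answers to stress and steroid hormones, read 48631 in the KO pool and 21722 in the WT pool, or 2.39-fold higher. Hmox1, which breaks down haem, stood at 0.74, beside Bnip3 at 0.71. Tfrc, the transferrin receptor that brings iron into cells, read 478 in the KO pool and 1372 in the WT pool, a difference of -1.43, and its 3 probes ran from -1.43 to -1.33. The chemokine receptor Cxcr4 was also lower, at -0.67, followed by the oxidase gene Ero1a at -0.38. Bnip3l, the close relative of Bnip3, was picked after its value was seen and stood at 0.14 on the brightest of its 4 probes, with the highest at 0.33.

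Across these lists, the 86 genes that are not among the 10 had 9 at least 1.5-fold higher and 2 lower, which is 10.5% and 2.33%, beside 6.78% and 4.47% of all measured genes. Their median was 0.18 log2.

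**Figure D3:**
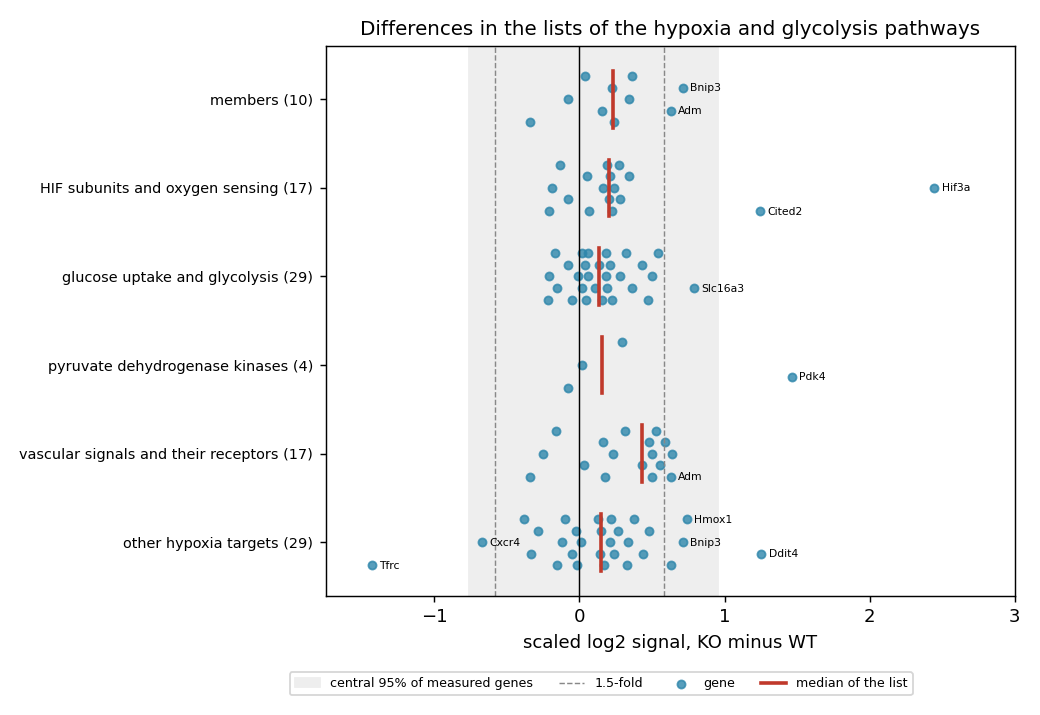
Each point is 1 gene, placed by its difference in scaled log2 signal, KO minus WT; rows are the 10 genes and the wider lists, with the number measured in brackets, and red bars are medians. Hif3a, Pdk4, Ddit4 and Cited2 lie to the right of the grey central 95% of all genes and Tfrc to its left, while the medians run from 0.13 to 0.43.

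Markers of further cells of skin differed between the pools, and their part in the 10 genes was not tested. Their counts at 1.5-fold, here and in the next paragraph, stand beside 6.78% of all measured genes higher and 4.47% lower. Hair follicle genes were lower, 10 of 14 by at least 1.5-fold, from Krt33b at -1.47 to Lef1 at -0.17, and their summed scaled level was 126 in the KO pool and 200.3 in the WT pool. Erythroid genes were higher in 4 of 8 and lower in 0, from Hbb-bh1 at -0.08 to Hbb-y at 1.99, with sums of 54.8 in the KO pool and 38.8 in the WT pool, and Klf1 was well above background in the KO pool alone and Epb42 in the WT pool alone. Neutrophil genes were higher in 6 of 10 and lower in 1, from Camp at -1.0 to Mmp8 at 2.56, with sums of 66.0 in the KO pool and 59.5 in the WT pool. Those higher apart from S100a9 and S100a8, named after their values were seen, were dim. In the KO and WT pools Mmp8 read 119 and 21.6, Cxcr2 79.6 and 22.4, Ltf 122 and 56.9, and Ngp 108 and 57.2. Most of both neutrophil sums was Csf3r, the receptor for granulocyte colony-stimulating factor, at 54.4 in the KO pool and 56.0 in the WT pool. Its single probe lay at percentile 99.2 of the measured genes, and whether that probe reads Csf3r alone was not tested. Without Csf3r, a choice made after its value was seen, the sums were 11.7 in the KO pool and 3.51 in the WT pool. Those sums were in turn mostly S100a9 and S100a8, also named after their values were seen. S100a9 read 16197 in the KO pool and 3357 in the WT pool, and S100a8 read 6160 in the KO pool and 1631 in the WT pool. Which cells of the skin held the S100a9 and S100a8 RNA was not tested. The erythroid sums were likewise mostly the globin gene Hba-a1, and without it were 4.22 in the KO pool and 2.90 in the WT pool. Mmp9 was not well above background in the WT pool.

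Keratinocyte genes were nearly level, with 1 of 11 at least 1.5-fold higher, from Krt5 at -0.05 to Ivl at 0.63, and sums of 642 in the KO pool and 608 in the WT pool. Fibroblast genes had 0 of 8 past that size, from Lum at -0.23 to Pdgfra at 0.49, with sums of 337 in the KO pool and 320.0 in the WT pool. Adipocyte genes were lower in 3 of 9 and higher in 0, from Plin1 at -1.13 to Ucp1 at 0.58, with sums of 93.1 in the KO pool and 108 in the WT pool, and Lep was not well above background in the KO pool. Macrophage genes were higher in 1 of 10 and lower in 0, from Lyz2 at -0.29 to Cd163 at 1.02, with sums of 24.9 in the KO pool and 23.0 in the WT pool.

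**Figure D4:**
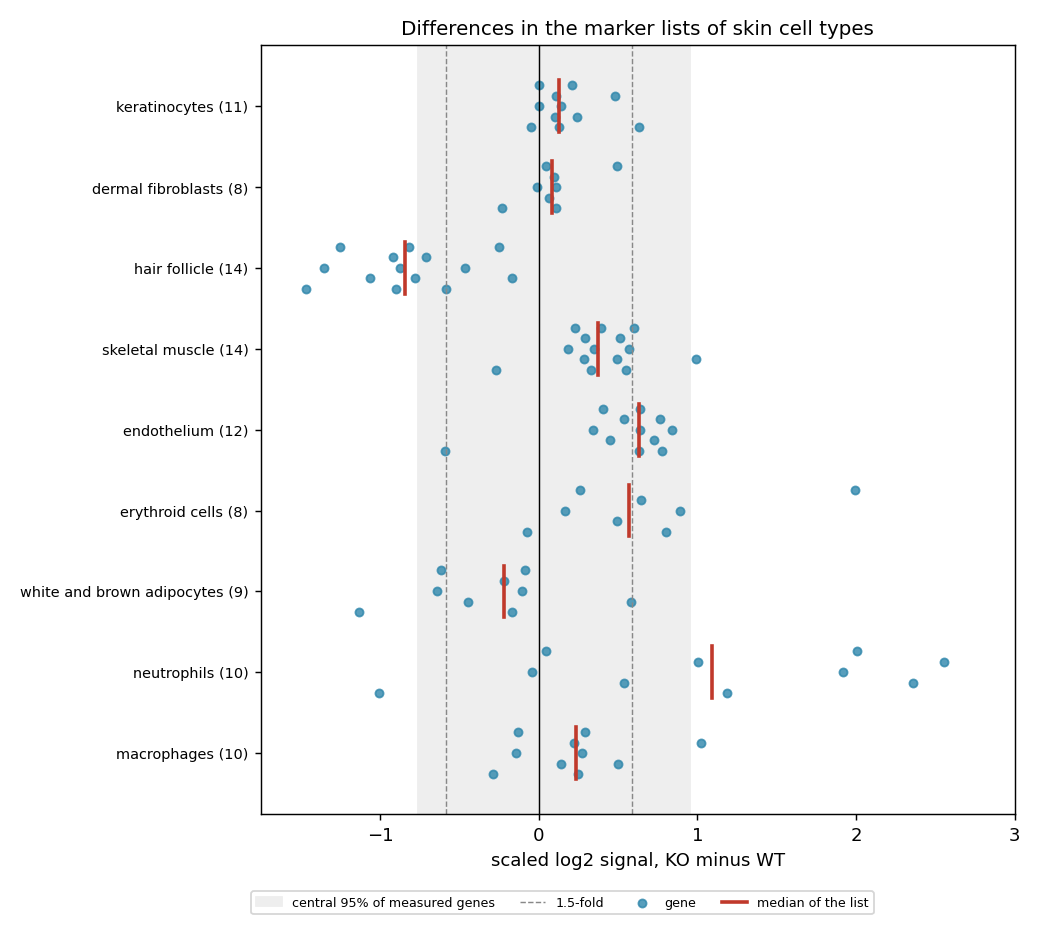
Each point is 1 marker gene, placed by its difference in scaled log2 signal, KO minus WT; red bars are the medians of the lists. The hair follicle list lies to the left of 0, and the endothelial, erythroid and neutrophil lists have medians of 0.63, 0.57 and 1.09.

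Apart from Hif1a, whose probes disagree, the settings tried moved each of the 10 genes by less than the scanner error. Adm passed 1.5-fold by a narrow margin, and under scaling to the median of all probes it stood at 0.58, just short of that size. Bnip3 ranged from 0.67 to 0.78 over all settings tried, and Vegfa from -0.39 to -0.30. Ldha changed sign within a range of -0.06 to 0.04.

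**Figure D5:**
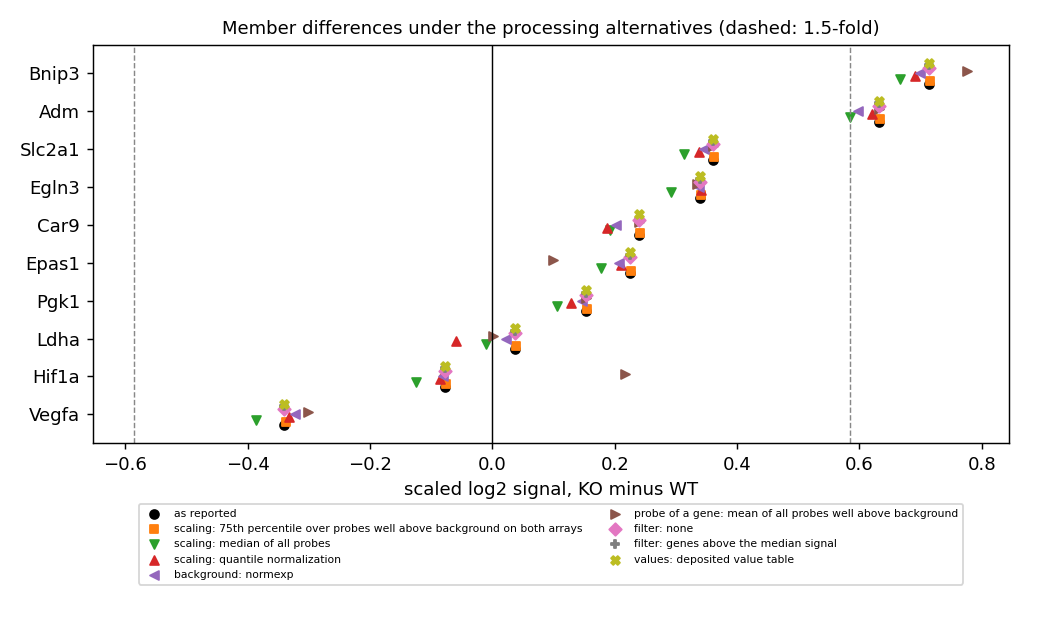
Difference of each of the 10 genes, in scaled log2 signal, KO minus WT, as reported (black circles) and under 8 processing alternatives. Bnip3 and Adm stay rightmost and Vegfa leftmost under each setting, the mean over probes lifts Hif1a above 0, and Adm lies just short of the dashed 1.5-fold line under scaling to the median.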

How the data were processed

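Skin RNA of 2 pools, 1 per genotype and 5 animals each, was labelled with Cy3 and hybridised to an Agilent design on the build mm9, per the labels' protocols and the file headers. The scanner software was Agilent Feature Extraction 11.5.1.1, per the submitters' processing notes. The deposited intensity of each spot is on a linear scale, with background and spatial trends already removed, per the file headers. The deposited value table holds a ratio, which equalled the processed intensity over 2273 on the KO array and 2406 on the WT array for all 44397 spots.

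Control spots and 234 outlier spots were left out, and 0 spots were saturated. Log2 intensity was averaged over the spots of a probe and scaled to the array's 75th percentile. Probes were named by accession (28326), symbol (2204) or synonym (173) in a RefSeq table of GRCm38.p6, and 1787 kept the name in the file. A gene took its brightest probe well above background on both arrays, which 19376 genes had. Both arrays were on 1 slide. The depth of an array is its signal over background: 80.8% of probes passed on the KO array and 78.0% on the WT array. No test was possible with 1 array per group, so genes were counted at 1.5-fold. A run on simulated arrays, with 200 genes shifted 2-fold and spot noise of 0.039 log2 alone, found all 200. A 2-fold shift lies far past 1.5-fold at that noise, so the run checks the code alone. It leaves out the animals and the scanner's own error, and says nothing of what these pools can detect. Other tools were limma 3.58.1, for normexp, and Python 3.11.15.

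The 10 genes and all lists were chosen with earlier results on these arrays known. Named were the 10 genes, Pla2g4e, sex-linked checks, the 3 highest and 3 lowest of each wider list with all past 1.5-fold, and the highest and lowest marker of each cell type. A few genes that this rule takes are not reported here, though counts include them. Alternatives covered scaling, normexp background correction, the probe of a gene, the filter on dim probes and the deposited table.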

Additional observations from a re-analysis of the deposited data

How the results depend on the processing

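Of the 10 genes, the count at least 1.5-fold higher was 1 instead of 2 when arrays were scaled to the median of all probes, since Adm then stood at 0.58 log2. Under the same scaling the vascular list had 1 such gene instead of 3. With genes above the median signal alone, 0 instead of 2 other hypoxia targets were at least 1.5-fold lower, because Tfrc and Cxcr4 lay below that signal, and Car9 had no value there for the same reason. Averaging the probes of a gene put Hif1a at 0.22 instead of -0.08. No other count of the 10 genes or the wider lists moved by over 1.5 times, no other of the 10 genes' differences moved by more than the scanner error, and neither Bnip3 nor Adm changed sign. The same alternatives were run, after the data were seen, on the 11 genes of the wider lists that were at least 1.5-fold different. None of these 11 changed sign and 10 stayed past 1.5-fold under every setting that gave a value, the exception being Angpt2 at 0.54 under scaling to the median and at 0.58 under normexp. Averaging probes put Hif3a at 1.66 instead of 2.45, the 1 difference among the 11 that moved by more than the scanner error. Over all genes, 1314 higher and 867 lower by 1.5-fold became 857 and 424 under normexp, which draws low signals together, 2238 and 1347 without a filter on dim probes, and 401 and 237 among genes above the median signal. The deposited table gave the same values. No paired analysis was possible because each genotype had 1 array, and for the same reason no replicate could be left out. Signal over background limits what can be said of dim genes such as Car9 and Calcrl.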
